A study of Mus musculus with 8 samples.

Results

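A set of 9 genes that mark the epithelium of the pancreatic duct were followed across 8 RNA-seq libraries of primary mouse islets. They were picked by name as known duct markers, with earlier results of these data known. Krt19, Krt7, Krt18, Sox9, Cftr, Spp1, Muc1, Tspan8 and Clu were each found once by symbol, and they make 9 of the 54532 Ensembl genes in every count file. Islets came from wild-type mice and from mice labelled STING KO (Sting-/-), aged 25 to 30 weeks. After collagenase digestion they were picked by hand and rested overnight in culture medium. They were then kept for 3 h with DMSO, the solvent, or with DMXAA at 50 µg/mL, an agonist of mouse STING. Each of the 4 groups (wild-type DMSO, wild-type DMXAA, knockout-labelled DMSO, knockout-labelled DMXAA) had 2 libraries, numbered 1 and 2. The sources used here do not say which allele the mice carried or whether animals were pooled. No label tells whether the libraries of a group are separate mice, so a p-value reflects only how far these libraries scatter, and that scatter may be technical.

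Pancreatic ducts carry digestive juice from acinar cells to the gut, and their cells add bicarbonate-rich fluid. A collagenase digest frees islets from this exocrine tissue, and fragments of duct and acinus can stay attached to picked islets. Ductal epithelium is recognised by its keratins and by the transcription factor SOX9. Its chloride channel CFTR drives fluid secretion, mucin 1 lies on its luminal membrane, and osteopontin (Spp1) and clusterin (Clu) are among its secreted proteins. Several of these genes are not restricted to ducts. Keratin 18 is found in most simple epithelia, osteopontin is also made by macrophages, and clusterin by many tissues. In bulk RNA, fewer cells of a type and less RNA per cell cannot be told apart.

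Total counts were between 15624020 and 19601850 per library. Levels are given as CPM, a gene's count scaled to a common library size with TMM factors. The count of Sting1 itself was 19 to 48 in the knockout-labelled and 23 to 41 in the wild-type libraries (log2 difference 0.03 under DMSO, edgeR adjusted p = 0.984), so directions by genotype rest on the labels. Endocrine identity was clear, with 12 beta cell markers summing to between 164800 and 325400 CPM. Acinar RNA varied between libraries. The sum of 31 acinar markers was 7750 CPM in wild-type DMSO replicate 1 and 1633 CPM in replicate 2. It was 1835 and 3396 CPM in wild-type DMXAA, 1898 and 2773 CPM in knockout-labelled DMSO, and 528.5 and 484.9 CPM in knockout-labelled DMXAA libraries. Wild-type DMSO replicate 1 thus stood apart as the library richest in acinar RNA, and both knockout-labelled DMXAA libraries as the poorest.

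The promoters of 4 members on which the results turn are shown, namely those of the most abundant member, the steady keratin pair and the member that passed a test. Each covers 250 bases before and 50 after an annotated start in RefSeq (GRCm38.p6, the assembly behind mm10); 6 of the 9 members were matched. Capitals mark matches on either strand to the TATA core TATAAA, the GC box GGGCGG, the CCAAT box, the SOX core ACAAAG or the interferon-response motif, searched as TTTC, any 2 bases and TTTC again. The AP-1 motif TGANTCA and the STAT motif TTCNNNGAA were also searched, and neither matched in these 4 windows. No matches overlapped each other in them.
Spp1, chr5:104434861-104435160, plus strand: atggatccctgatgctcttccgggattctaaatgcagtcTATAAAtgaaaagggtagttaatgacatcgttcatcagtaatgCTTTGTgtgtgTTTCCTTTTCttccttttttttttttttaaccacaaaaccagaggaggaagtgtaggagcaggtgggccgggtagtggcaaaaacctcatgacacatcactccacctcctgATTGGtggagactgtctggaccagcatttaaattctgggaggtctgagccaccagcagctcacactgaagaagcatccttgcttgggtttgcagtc
Krt7, chr15:101412153-101412452, plus strand: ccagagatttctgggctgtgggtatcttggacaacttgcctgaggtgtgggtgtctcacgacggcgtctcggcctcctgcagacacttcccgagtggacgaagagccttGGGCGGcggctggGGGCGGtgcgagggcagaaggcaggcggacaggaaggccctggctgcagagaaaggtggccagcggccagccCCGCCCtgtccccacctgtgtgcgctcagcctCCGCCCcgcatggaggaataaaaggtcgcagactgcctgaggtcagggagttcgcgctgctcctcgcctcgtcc
Krt18, chr15:102027966-102028265, plus strand: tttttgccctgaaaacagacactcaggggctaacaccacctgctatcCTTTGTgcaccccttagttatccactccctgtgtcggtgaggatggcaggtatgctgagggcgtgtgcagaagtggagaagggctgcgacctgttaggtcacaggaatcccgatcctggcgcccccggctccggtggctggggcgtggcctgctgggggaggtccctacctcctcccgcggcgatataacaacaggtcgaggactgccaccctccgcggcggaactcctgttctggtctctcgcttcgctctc
Tspan8, chr10:115817034-115817333, plus strand: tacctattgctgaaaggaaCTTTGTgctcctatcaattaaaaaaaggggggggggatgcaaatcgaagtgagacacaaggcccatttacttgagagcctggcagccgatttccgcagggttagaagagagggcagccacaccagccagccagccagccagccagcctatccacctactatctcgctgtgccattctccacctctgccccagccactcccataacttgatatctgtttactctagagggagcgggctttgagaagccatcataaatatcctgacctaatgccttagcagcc

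The windows differed in make-up. That of Krt7 held 4 GC boxes and was 66.3% G and C, while that of Spp1 was 45.3% G and C and held the interferon-type run, 1 TATA core, 1 reversed CCAAT box and 1 reversed SOX core. The windows of Krt18 and Tspan8 each held 1 reversed SOX core. Among all 32851 promoter windows of this length, 37.4% held a CCAAT box, 35.7% a GC box, 18.7% a SOX core, 13.6% a TATA core, 8.30% the STAT motif, 7.81% the AP-1 motif and 3.44% the interferon-response motif. A second annotated start of Spp1 was matched too. Its window, not printed, was 36.7% G and C and held 1 reversed SOX core and none of the other motifs. A match describes letters only, not a site that is used.

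The members covered a very wide range of expression. Per kilobase of the principal transcript, the mean over 8 libraries was 457 CPM for Spp1, 266 for Clu, 149 for Krt18, 83.6 for Krt7, 14.3 for Tspan8, 5.60 for Krt19, 2.79 for Muc1, 1.01 for Sox9 and 0.0282 for Cftr. Spp1 was above Clu in 7 of 8 libraries, and Krt19 above Muc1 in 7 of 8, with overlapping ranges in both cases. Every other neighbour in this order kept its place in all 8 libraries. The ranges did not overlap between Krt18 and Krt7, between Krt7 and Tspan8, or between Sox9 and Cftr. The place of Krt18 above Krt7 rests on the transcript lengths used, 1.44 and 4.09 kilobases. Before that scaling Krt7 was above Krt18 in every library, with means of 342 and 214 CPM. The label of the list was therefore borne by very unequal levels. Cftr, which defines the duct's secretory function, was close to 0, and Sox9 lay at the 24.3rd percentile per kilobase among tested genes. Spp1 and Clu lay at the 99.6th and 99.1st percentile, and Krt18 and Krt7 at the 98.3rd and 96.3rd.

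**Figure D1:**
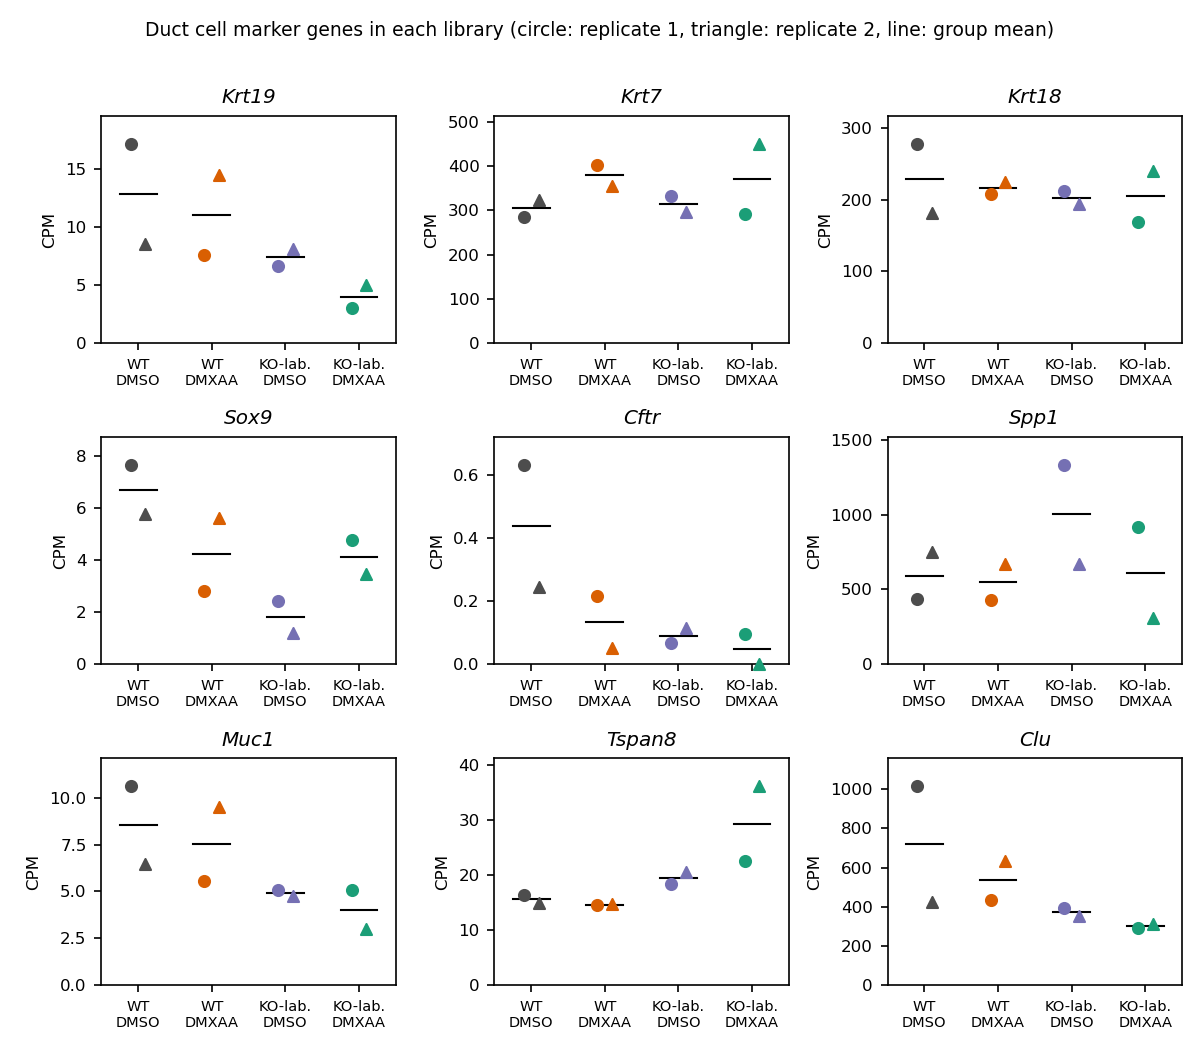
Level in CPM (linear axes from 0) of the 9 duct marker genes in the 8 libraries; circles are replicate 1, triangles replicate 2, lines group means (n = 2), and "KO-lab." stands for knockout-labelled. Krt7 and Krt18 stay within narrow ranges, Krt19 runs from 3.00 to 17.2 CPM, and Tspan8 is highest in the knockout-labelled DMXAA libraries.

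Keratins form the intermediate filaments of epithelial cells from pairs of a type I and a type II chain. Krt19 (ENSMUSG00000020911, mm10 chromosome 11, 100140810 to 100148665, minus strand) encodes the type I chain most used to recognise ducts in the mouse pancreas. It was at 17.2 and 8.56 CPM in wild-type DMSO, 7.59 and 14.5 CPM in wild-type DMXAA, 6.67 and 8.15 CPM in knockout-labelled DMSO, and 3.00 and 4.97 CPM in knockout-labelled DMXAA libraries. The wild-type groups overlapped each other, and the knockout-labelled DMXAA libraries were the lowest of all 8. Krt7 (ENSMUSG00000023039, chromosome 15, 101411043 to 101430313, plus strand), a type II chain of ducts and other glandular epithelia, was at 285 and 325, 403 and 355, 333 and 297, and 292 and 449 CPM in the same order. Its wild-type groups did not overlap, and its knockout-labelled groups did. Krt18 (ENSMUSG00000023043, chromosome 15, 102028180 to 102032027, plus strand), the type I partner of keratin 8, was at 277.5 and 182, 207 and 226, 212 and 194, and 169 and 241 CPM, with overlap between all groups.

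The 3 keratins did not vary alike. The highest library exceeded the lowest 5.71 times for Krt19, against 1.57 times for Krt7 and 1.64 times for Krt18. The SD of log2(CPM + 0.5) over the libraries was 0.75 for Krt19, 0.23 for Krt7 and 0.23 for Krt18, beside a median of 0.26 over all 17055 tested genes. Krt19 was thus more variable than 97.3% of tested genes, and the other keratins were near the middle. Krt8, the usual partner of Krt18, was measured among other duct genes and followed it closely, with a root mean square difference of 0.109 between their centred log2 values. Per kilobase the Krt8 level was 0.686 to 0.871 times that of Krt18, and 14.2 to 49.3 times that of Krt19. The antisense gene Gm671 overlaps 77 exonic bases of Krt7 and had 8 to 28 counts.

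Sox9 (ENSMUSG00000000567, chromosome 11, 112782224 to 112787760, plus strand), the transcription factor that maintains ductal identity, was at low level throughout. It had 7.63 and 5.76 CPM in wild-type DMSO, 2.80 and 5.62 CPM in wild-type DMXAA, 2.40 and 1.19 CPM in knockout-labelled DMSO, and 4.75 and 3.45 CPM in knockout-labelled DMXAA libraries. The knockout-labelled DMSO libraries were the lowest of all 8. Wild-type DMSO libraries were the highest, and the DMXAA groups lay between and overlapped each other. The counts behind these values were 21 to 145 per library.

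Among membrane proteins, the chloride channel gene Cftr (ENSMUSG00000041301, chromosome 6, 18170687 to 18322768, plus strand) was barely detected. Wild-type libraries held 12 and 5 counts with DMSO, then 4 and 1 with DMXAA. Knockout-labelled libraries held 1 and 2, then 2 and 0. The exact 2-sided 95% Poisson interval was 6.20 to 20.96 counts for the highest library. For the library at 0 the limit used is a 1-sided one, of up to 3 counts. Both cover counting error only, since PCR copies are not independent molecules. Cftr did not pass the filter on low counts and was not tested, so 8 of the 9 members entered the tests. In edgeR without that filter its log2 differences ran from -2.17 to 0.93 over the 5 comparisons, with adjusted p of 0.587 to 1.0.

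Muc1 (ENSMUSG00000042784, chromosome 3, 89229057 to 89233381, plus strand), the transmembrane mucin of the luminal surface, was at 10.6 and 6.44 CPM in wild-type DMSO and 5.54 and 9.52 CPM in wild-type DMXAA libraries. It was at 5.07 and 4.76 CPM in knockout-labelled DMSO and 5.08 and 2.98 CPM in knockout-labelled DMXAA libraries. All 4 knockout-labelled libraries lay below all 4 wild-type libraries, narrowly, with 5.08 against 5.54 CPM at the gap. Tspan8 (ENSMUSG00000034127, chromosome 10, 115816832 to 115849893, plus strand), a tetraspanin that organises membrane protein complexes, showed the opposite order. It was at 16.5 and 15.0 CPM in wild-type DMSO, 14.6 and 14.7 CPM in wild-type DMXAA, 18.4 and 20.6 CPM in knockout-labelled DMSO, and 22.6 and 36.2 CPM in knockout-labelled DMXAA libraries. Its 4 groups did not overlap, and the highest library was 2.48 times the lowest. The shares of all tested genes separated like Muc1 or like Tspan8 were not counted.

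The secreted proteins were the most abundant members. Spp1 (ENSMUSG00000029304, chromosome 5, 104435118 to 104441050, plus strand), which encodes the integrin-binding phosphoprotein osteopontin, was at 433 and 753 CPM in wild-type DMSO and 427 and 669 CPM in wild-type DMXAA libraries. It was at 1332 and 674 CPM in knockout-labelled DMSO and 919 and 305.5 CPM in knockout-labelled DMXAA libraries. The wild-type groups overlapped, as did the knockout-labelled groups. Replicates of a group were far apart, with a pooled within-group SD of 0.75 beside 0.68 over all libraries on the log2 scale. Clu (ENSMUSG00000022037, chromosome 14, 65968483 to 65981547, plus strand), which encodes the extracellular chaperone clusterin, was at 1015 and 426 CPM in wild-type DMSO, 436 and 632 CPM in wild-type DMXAA, 393 and 353 CPM in knockout-labelled DMSO, and 292 and 310 CPM in knockout-labelled DMXAA libraries. As with Muc1, every knockout-labelled library was below every wild-type library, with 393 against 426 CPM at the gap. The share of all tested genes separated in this way was not counted. A further annotated locus, Gm42793, overlaps 309 exonic bases of Spp1 and had 3 to 23 counts.

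One library held many of the highest values. Krt19, Krt18, Sox9, Cftr, Muc1 and Clu, 6 of the 9 members, were highest in wild-type DMSO replicate 1, the library with the most acinar RNA. Among the 8 tested members this was 5, and among all tested genes 21.7% were highest there. At the other end, 6 of the 9 members had their lowest value in 1 of the knockout-labelled DMXAA libraries, which were lowest in acinar RNA. Among the 8 tested members this was 5, and among all tested genes 28.3%. Some members went the other way. Krt7 was lowest in wild-type DMSO replicate 1, as were 22.7% of all tested genes. Krt7 and Tspan8 were highest in knockout-labelled DMXAA replicate 2, as were 22.4% of all tested genes. The part of exocrine tissue in these member values was not tested.

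**Figure D2:**
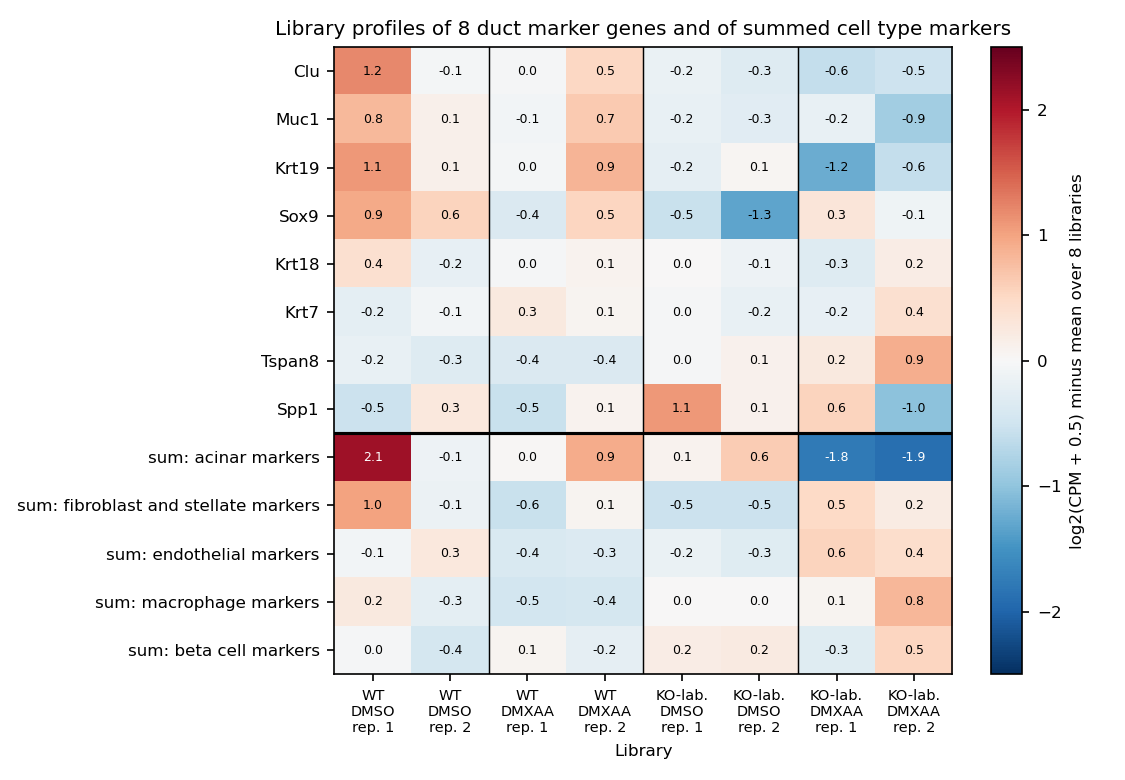
Library profiles as log2(CPM + 0.5) minus the mean over the 8 libraries, for the 8 tested members above the black line and for summed cell type markers below it; red is above and blue below each row's mean. Clu, Muc1 and Krt19 share high values in wild-type DMSO replicate 1 and wild-type DMXAA replicate 2, where the acinar sum is also highest, while Krt7, Tspan8 and Spp1 are below their mean in the first of these.

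Members fell into unlike profiles. Likeness was measured as the root mean square (RMS) difference between 2 genes' centred log2(CPM + 0.5) values over the 8 libraries, which share depth and scaling, and it is a description. Clu and Muc1 were closest, with an RMS difference of 0.25, followed by Krt7 and Krt18 with 0.27 and Krt19 and Clu with 0.30. For scale, the median gene differed from Krt19 by 0.74, from Clu by 0.60 and from Krt7 by 0.30. Among 14423 candidate genes with a mean of at least 1 CPM, Clu was the nearest of all to Krt19, and Muc1 was the third nearest to Clu. The value for Krt7 and Krt18 was ordinary for such steady genes, as Krt18 ranked 5398th among the candidates by nearness to Krt7. Spp1 was far from Krt19, at 1.04, and from Sox9, at 1.01. Krt19 and Sox9 differed by 0.80, more than Krt19 and the median gene.

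Genes outside the list were near some members. After Clu, the nearest to Krt19 were Itgb4, the integrin chain of epithelial hemidesmosomes, at 0.31, and the amylase gene Amy2a4, at 0.35. Amy2a4 has near-identical copies that can share reads. Nearest to Clu were C3, the central complement component, at 0.24, and the noncoding RNA Platr26, also at 0.24. Sox9 was nearest to Calcrl, a receptor of endothelial cells, at 0.24, to the complement gene C4b, at 0.25, and to the noncoding RNA Gm26945, at 0.28. Tspan8 was nearest to Cd68, a lysosomal protein of macrophages, at 0.10, to Aard, at 0.12, and to Scgn, a calcium-binding protein of endocrine cells, at 0.13. For Krt7 they were Tspan33, Gm648 and Adprh, at 0.05 to 0.06, and for Krt18 Atp5g1, Hibch and Ppa1, at 0.07 to 0.08. For Spp1 they were Mterf1b, Gm18258 and Gm37174, at 0.27 to 0.34, and for Muc1 Gm26530, Gm38372 and Gm10603, at 0.15 to 0.17.

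Set against summed cell type markers, the acinar sum was the nearest of 9 lists for Krt19, with an RMS difference of 0.66. That was beside 0.74 for the median candidate gene. The fibroblast and stellate sum was the nearest for Sox9, at 0.43, for Clu, at 0.55, and for Muc1, at 0.56. The median candidate gene differed by 0.73 from Sox9, by 0.60 from Clu and by 0.55 from Muc1, so for Muc1 no sum was nearer than an ordinary gene. The macrophage sum was nearest for Tspan8, at 0.19, and the sum of alpha, delta and PP cell markers was next, at 0.21. For Krt7 the neural and Schwann sum was nearest, at 0.20. The alpha, delta and PP sum followed at 0.25 and the beta cell sum at 0.26. For Krt18 the beta cell sum was nearest, at 0.28. The median candidate gene differed by 0.30 from Krt7 and by 0.31 from Krt18. The neural and Schwann sum was 58.6 to 83.4 CPM. Its highest gene was Ncam1, at a mean of 40.4 CPM. For Spp1 the nearest was the neural and Schwann sum, at 0.72, no nearer than its median candidate gene, at 0.68. The sum of 20 macrophage markers was 90.4 to 221 CPM and that of 16 fibroblast markers 122 to 360 CPM. Of 12 mesothelial markers, 9 were too low to be tested and 2 had no count in any library. The highest of the 12 was Msln, at a mean of 46.44 CPM. The mesothelial sum was 104.3 CPM in knockout-labelled DMXAA replicate 2 and at most 66.35 CPM in every other library. It was not the nearest sum for any tested member, and its part in the member values was not tested.

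**Figure D3:**
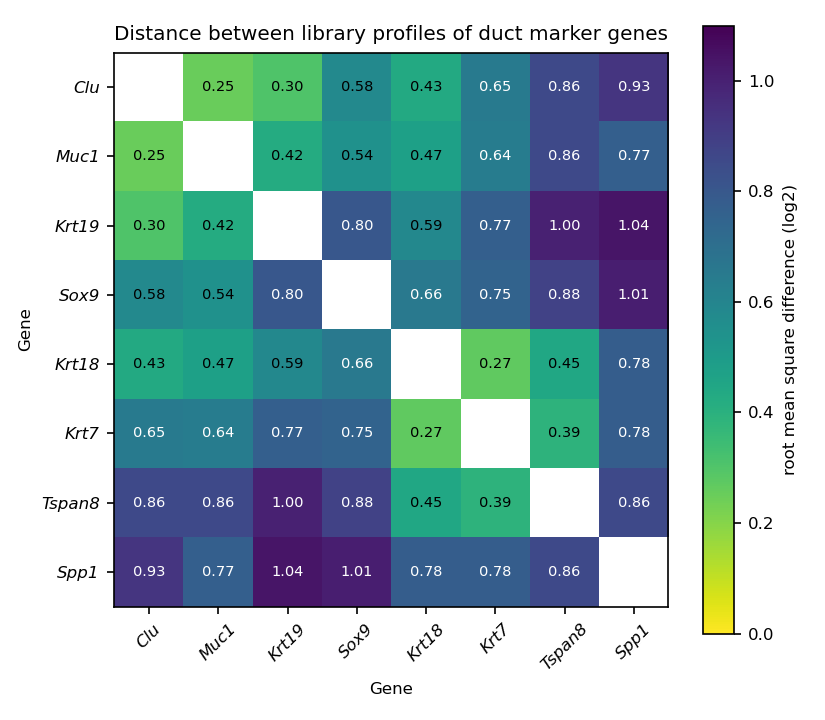
Root mean square difference (log2 scale) between the library profiles of each pair of the 8 tested members; light green is alike, dark is unlike. Clu, Muc1 and Krt19 form the light block at the top left, Krt18 and Krt7 another, and Spp1 is far from the rest.

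The first of 5 comparisons, which share libraries and so are not independent, asked what DMXAA did to these genes in wild-type islets. None of the 8 tested members was called by the quasi-likelihood test of edgeR at an adjusted p under 0.05, where 1.48% of all tested genes were. None had an unadjusted p under 0.05, as 11.9% of all tested genes had. Their log2 fold changes ran from -0.66 to 0.31 with a median of -0.14, beside 0.00 over all genes. Sox9 had the most negative value, -0.66 (SE 0.35, adjusted p = 0.476), and Krt7 the most positive, 0.31 (SE 0.19, adjusted p = 0.527). Spp1, with the interferon-type letters in 1 of its 2 promoter windows, had -0.11 (SE 0.68, adjusted p = 0.965). In 1 member, Krt7, both DMXAA libraries were above both DMSO libraries, and in Sox9 and Tspan8 both were below. Among all tested genes 22.5% and 23.9% had such separation upward and downward. Clu had -0.43 (SE 0.36, adjusted p = 0.657). Without wild-type DMSO replicate 2 it was called, at -0.92 (adjusted p = 0.027), and without replicate 1 its value was 0.34.

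The second comparison repeated this in knockout-labelled islets. None of the 8 was called there either, beside 0.375% of all tested genes. The median of the members was -0.13, beside 0.00 over all genes. In 2 members the unadjusted p was under 0.05, beside 7.3% of all tested genes. These were Sox9, with a log2 fold change of 1.23 (SE 0.44, edgeR unadjusted p = 0.0146, adjusted p = 0.464), and Tspan8, with 0.59 (SE 0.21, edgeR unadjusted p = 0.0163, adjusted p = 0.487). Krt19 had the most negative value, -0.91 (SE 0.43, adjusted p = 0.707). Both DMXAA libraries lay above both DMSO libraries in Sox9 and Tspan8, and below them in Krt19 and Clu. The background was 18.1% upward and 17.7% downward. Acinar marker sums were separate in the same 2 groups, at 1898 and 2773 against 528.5 and 484.9 CPM, and their part in the Krt19 and Clu values was not tested.

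The difference between the DMXAA effects was tested directly. No member was called, beside 1.2% of all tested genes, and 2 had an unadjusted p under 0.05, beside 8.71%. Sox9 had the largest difference, 1.89 (SE 0.56, unadjusted p = 0.00505, edgeR adjusted p = 0.207), with a log2 fold change of -0.66 in wild-type and 1.23 in knockout-labelled islets. Tspan8 differed by 0.69 (SE 0.31, adjusted p = 0.547) and Krt19 by -0.70 (SE 0.57, adjusted p = 0.775). The remaining members lay between -0.60 and 0.12. The fibroblast and stellate sum, nearest to Sox9 above, was 360 and 162 CPM with DMSO against 122 and 190 CPM with DMXAA in wild-type islets. It was 123 and 124 against 254 and 207 CPM in knockout-labelled islets, and its part in the Sox9 value was not tested.

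Between genotypes under DMSO, no member was called, beside 0.223% of all tested genes, and 3 (Sox9, Clu and Muc1) had an unadjusted p under 0.05, beside 12.3%. The median log2 difference between knockout-labelled and wild-type islets was -0.48 over the 8 members and 0.00 over all genes. Sox9 had -1.92 (SE 0.41, edgeR adjusted p = 0.0986), a level 3.79 times lower in the fit, Clu -0.95 (SE 0.36, adjusted p = 0.362), Muc1 -0.79 (SE 0.34, adjusted p = 0.377) and Krt19 -0.79 (SE 0.39, adjusted p = 0.433). In these 4 both knockout-labelled libraries lay below both wild-type libraries, and in Tspan8 both lay above, beside 22.4% and 24.3% of all tested genes. Spp1 had the most positive value, 0.76 (SE 0.69, adjusted p = 0.691), while Krt7 differed by 0.05 (SE 0.19) and Krt18 by -0.18 (SE 0.21). The Clu value was -0.21 (adjusted p = 0.823) without wild-type DMSO replicate 1 and -1.47 (adjusted p = 0.0135) without replicate 2. The Sox9 difference was called by DESeq2 (adjusted p = 0.0076) and by edgeR with no filter on low counts (adjusted p = 0.00583). It was not called by limma-voom, by edgeR with a mean of at least 1 CPM, or in the fit of these groups alone. Leaving out a library gave Sox9 values from -2.48 to -1.47.

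Under DMXAA, Tspan8 was the 1 member called between genotypes. It was higher in knockout-labelled islets, 29.4 ± 9.62 CPM against 14.6 ± 0.0606 CPM (SD, n = 2), a fitted ratio of 2.001 (SE of the log2 value 0.22, edgeR adjusted p = 0.0247). Of all tested genes 2.39% were called in this comparison, and 1.02% were called higher. An unadjusted p under 0.05 was found in 3 members (Tspan8, Krt19 and Muc1), beside 13.0% of all tested genes. Both knockout-labelled libraries were above both wild-type libraries, beside 23.3% of all tested genes. Its call was lost without either wild-type DMXAA library (adjusted p = 0.217 and 0.165), without either knockout-labelled DMSO library (0.0548 and 0.0559), and without knockout-labelled DMXAA replicate 2 (0.211), where the difference was 0.62. That library also had the highest sums of beta cell markers (325400 CPM) and of macrophage markers (221 CPM). The part of these in the Tspan8 value was not tested.

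No other member was called by edgeR between genotypes under DMXAA, and the median over the 8 was -0.06, beside 0.04 over all genes. The log2 difference was -1.49 for Krt19 (SE 0.41, edgeR adjusted p = 0.116), from 11.1 ± 4.90 to 3.99 ± 1.40 CPM (SD, n = 2), -0.88 for Muc1 (SE 0.35, adjusted p = 0.283) and -0.83 for Clu (SE 0.36, adjusted p = 0.392). Libraries of the groups did not overlap in these 3 members, beside 21.0% of all tested genes in that direction. Krt19 was called by DESeq2 (adjusted p = 0.00548) and by edgeR without wild-type DMXAA replicate 1 or either wild-type DMSO library. The acinar sum was 1835 and 3396 CPM against 528.5 and 484.9 CPM in these groups, with all 26 tested acinar markers lower and none called. Sox9, Krt7 and Krt18 had differences of -0.03, -0.03 and -0.08, with SE of 0.37, 0.19 and 0.21, and Spp1 had 0.16 (SE 0.68).

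**Figure D4:**
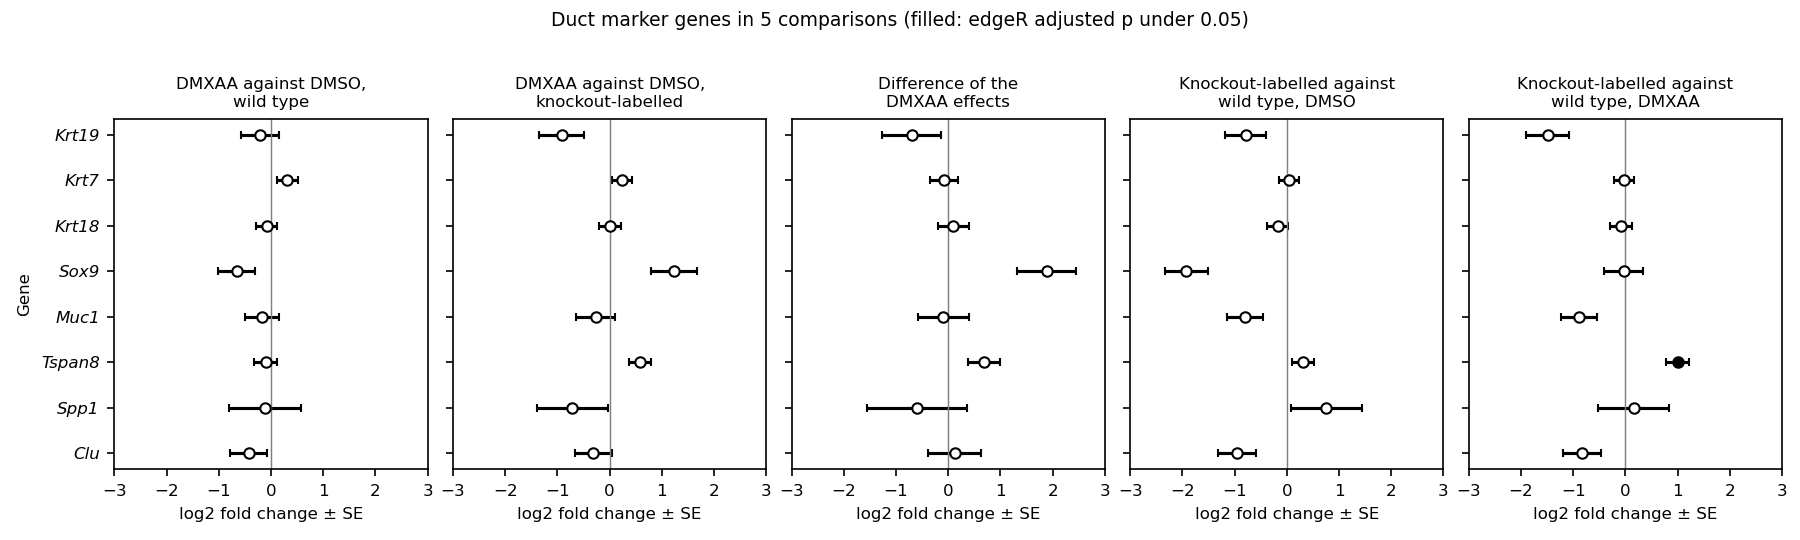
Log2 fold changes of the 8 tested members in the 5 comparisons, with SE as bars; filled points have an edgeR adjusted p under 0.05. Tspan8 in the comparison of genotypes under DMXAA is the 1 filled point, and Sox9 lies on opposite sides of 0 in the first 2 panels.

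Further duct genes were read from 4 lists chosen with earlier results of these data known. Of 41 other duct genes, 14 averaged under 1 CPM and 33 were tested. The 5 highest per kilobase were Anxa5, a phospholipid-binding protein (236 CPM per kilobase), Krt8 (116), the sodium pump subunit Atp1b1 (87.3) and the adhesion molecules Epcam (83.8) and Cdh1 (83.2). These are shared with endocrine or other cells, and each varied little, with an SD of log2 values from 0.108 to 0.227. In the order of comparisons above the list medians were -0.09, 0.04, 0.17, -0.24 and 0.04. The 1 gene called among them was Kcne3, a subunit that modulates epithelial potassium channels. It was called in 3 comparisons, lower with DMXAA in wild-type islets (beside 0.375% of all genes), higher in the difference of effects (0.668%) and higher between genotypes under DMXAA (1.02%). It was at 4.05 and 3.59 CPM in wild-type DMSO, 0.646 and 1.30 CPM in wild-type DMXAA, 1.93 and 3.11 CPM in knockout-labelled DMSO, and 5.52 and 3.39 CPM in knockout-labelled DMXAA libraries. Its log2 change with DMXAA in wild-type islets was -1.96 (SE 0.44, edgeR adjusted p = 0.0418), a call lost without wild-type DMSO replicate 1 (0.264), either wild-type DMXAA library (0.438 and 0.0947) or either knockout-labelled DMSO library (0.0591 and 0.061). The difference of the DMXAA effects was 2.77 (adjusted p = 0.0307), lost on leaving out any library but wild-type DMXAA replicate 2 or knockout-labelled DMXAA replicate 2 (adjusted p 0.0576 to 0.201). Between genotypes under DMXAA it was 2.20 (adjusted p = 0.0128), lost without replicate 1 of either group (0.197 and 0.0805).

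Another list held 19 genes linked to SOX9, Notch and YAP, all of them tested. With DMXAA 3 fell in wild-type islets, where 0.375% of all genes did, and the median was -0.37. They were Jag1, a Notch ligand, Hey1, a Notch target, and Id1, an inhibitor of basic helix-loop-helix factors. In wild-type islets Jag1 was at 20.8 and 20.2 CPM with the solvent and 7.32 and 10.5 CPM under DMXAA, and in knockout-labelled islets at 12.6 and 11.8 against 31.0 and 22.9 CPM. The groups were apart in both genotypes and in opposite order. Among all tested genes 23.9% were apart downward in wild-type and 18.1% upward in knockout-labelled islets. The log2 fold change of Jag1 was -1.20 (edgeR adjusted p = 0.01005) and 1.15 (adjusted p = 0.0399), and the difference between them 2.35 (SE 0.31, adjusted p = 0.00129). Of all genes 0.164% were called higher with DMXAA in knockout-labelled islets, and 0.668% had a difference of the effects called in this direction. The wild-type call was lost without replicate 1 of either wild-type group (adjusted p = 0.0846 and 0.198). The knockout-labelled call was lost without any of the 4 libraries compared (adjusted p 0.0604 to 0.636), and the difference was called in all 8 fits without a library.

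Hey1 fell by 1.34 on the log2 scale (edgeR adjusted p = 0.0108) and Id1 by 1.46 (adjusted p = 0.00999) with DMXAA in wild-type islets. Hey1 went from 11.0 and 9.35 to 4.20 and 3.85 CPM, and Id1 from 13.8 and 13.3 to 3.39 and 6.40 CPM. Both calls were lost without replicate 1 of wild-type DMSO (adjusted p = 0.0957 and 0.0746) or of wild-type DMXAA (0.087 and 0.151), and that of Hey1 also without wild-type DMXAA replicate 2 (0.139). Wwtr1, which encodes the YAP partner TAZ, differed between the DMXAA effects by 1.58 (adjusted p = 0.00998). Its adjusted p was 0.0814 with wild-type DMXAA replicate 1 left out, and 0.0935 and 0.0648 with knockout-labelled DMSO replicate 1 or 2 left out. Under DMXAA 5 of the 19 were higher in knockout-labelled islets, beside 1.02% of all genes. Among them Hey1, Jag1 and Id1 differed by 1.86, 1.60 and 1.84 and were called in all 8 fits without a library. The others were Wwtr1 and the receptor Notch3, which is named here after its value was seen. Their log2 differences and fits without a library are not given for this comparison. Endothelial cells also express Jag1, Hey1 and Id1. The sum of 16 endothelial markers went from 994 and 1243 to 793 and 818 CPM with DMXAA in wild-type islets, and from 927 and 840 to 1526 and 1399 CPM in knockout-labelled islets. Its part in these values was not tested.

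The last 2 lists held genes of secretion and of epithelial structure. None of the 16 tested genes for chloride and bicarbonate secretion was called by edgeR in any of the 5 comparisons, where 1.48%, 0.375%, 1.2%, 0.223% and 2.39% of all genes were, and their medians lay between -0.21 and 0.18. Of 29 tested genes for simple epithelial keratins and junctions, 1 was called in 1 comparison. Elf3, an epithelial transcription factor, was at 100 and 103 CPM in wild-type DMSO and 209.5 and 231 CPM in knockout-labelled DMSO libraries (log2 difference 1.11, SE 0.15, edgeR adjusted p = 0.0098), beside 0.182% of all genes called higher. The groups did not overlap, beside 24.3% of all tested genes in that direction. The call was lost without knockout-labelled DMSO replicate 1 or 2, where the log2 difference was 1.18 and 1.04. With DMXAA Elf3 was at 109 and 116 CPM in wild-type and 131 and 155.5 CPM in knockout-labelled libraries.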

How the data were processed

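RNA with poly(A) tails from primary mouse islets was sequenced on an Illumina HiSeq instrument, per the labels' protocols. The deposited files hold raw counts per Ensembl gene for each library. Per the submitters' processing notes HISAT2, HTSeq and mm10 were used, with no version. Neither the annotation release nor a strand setting is given in the sources used here. Whether reads of overlapping genes were told apart by strand is therefore not known. Symbols and coordinates came from GENCODE M21 (mm10), which holds 54495 of 54532 identifiers.

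Libraries of 15624020 to 19601850 counts were grouped by title. Within groups chi-square per degree of freedom was 7.41 to 59.8, so no library copied another. Counts were fitted with edgeR 4.0.16 in R 4.3.3: filterByExpr by group (17055 genes kept), TMM, 1 coefficient per group over all 8 libraries, and the robust quasi-likelihood F-test (legacy=FALSE) with Benjamini-Hochberg adjustment over all genes tested. SE is |log2 fold change| over root F. The 5 comparisons are those of the text; DESeq2 1.42.0, limma 3.58.1 (voom) and other settings were alternatives, and the steps were tested on simulated data. Levels per kilobase use the APPRIS principal transcript. Likeness used log2(CPM + 0.5).

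All members are named; from each other list, the 3 called genes with the smallest p in a comparison, the 5 highest other duct genes and the 3 nearest genes per member could be named. Genes called in lists of other cell types are not named. Members and lists were chosen with earlier results of these data known.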

Additional observations from a re-analysis of the deposited data

How the results depend on the processing

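Of 632 alternative values for the members' log2 differences, 581 kept their direction and side of the threshold, 6 lost the call, 10 gained one and 35 changed sign, 32 of these on leaving out a library. The counts of genes past the threshold moved over 1.5 times as follows. For DMXAA in knockout-labelled islets (64 genes) they were 177 without a filter, 17 with a mean of at least 1 CPM, 154 with DESeq2, 0 with limma-voom, 29 with the older edgeR fit and 139 from these groups alone. For genotype under DMSO (38 genes) they were 159, 22, 155, 13 and 17 under the first 5 of these. DESeq2 gave 312 for the difference of effects (204 genes) and 616 for genotype under DMXAA (407 genes). Leaving out a library gave 154 to 957 genes for DMXAA in wild-type, 2 to 113 in knockout-labelled islets, 92 to 266 for the difference, and 1 to 216 and 205 to 746 for genotype under DMSO and DMXAA. Beside the 0 from limma-voom, 1188 genes had an unadjusted p under 0.05 there. The causes were not tested.

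For the members, 1 was called between genotypes under DMSO without a filter and by DESeq2 (Sox9). Under DMXAA DESeq2 called 2 (Tspan8 and Krt19), and the fit of these groups alone called 0 (Tspan8, adjusted p = 0.091). Leaving out a library gave 0 to 1 for DMXAA in wild-type islets and for genotype under DMSO, where Clu was called without wild-type DMSO replicate 2 (-1.47, edgeR adjusted p = 0.0135). It gave 0 to 3 under DMXAA, where Clu, Krt19 and Tspan8 were called without either wild-type DMSO library. Under limma-voom Krt18 was -0.0076 with DMXAA in knockout-labelled islets, and Sox9 0.0386 and Spp1 -0.0164 between genotypes under DMXAA.

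Members whose sign changed on leaving out a library had these lowest and highest values. For DMXAA in wild-type islets they were -0.75 to 0.39 for Krt19, -0.35 to 0.26 for Krt18, -0.47 to 0.35 for Spp1, -0.61 to 0.24 for Muc1 and -0.92 to 0.34 for Clu. In knockout-labelled islets they were -0.11 to 0.49 for Krt7, -0.26 to 0.23 for Krt18 and -0.73 to 0.0516 for Muc1. For the difference of effects they were -0.42 to 0.17 for Krt7, -0.25 to 0.36 for Krt18, -0.57 to 0.35 for Muc1 and -0.65 to 0.61 for Clu. For genotype under DMSO they were -0.0579 to 0.13 for Krt7 and -0.47 to 0.14 for Krt18, and under DMXAA -0.38 to 0.20 for Krt7, -0.35 to 0.11 for Krt18, -0.45 to 0.54 for Sox9 and -0.89 to 0.75 for Spp1.

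Same-numbered libraries did not deviate together (correlations of -0.1 to 0.075 across genes), so the numbers are not taken as pairs. With a replicate block the 5 counts were 259, 61, 217, 56 and 417 genes, and 0, 0, 0, 0 and 1 members. Values for Kcne3, Jag1, Hey1, Id1, Wwtr1 and Elf3 without a library were chosen after seeing the data. In the fits of the compared groups alone, adjusted p was 0.0883 for Kcne3, 0.0789 for Id1 and 0.0508 for Jag1 with DMXAA in wild-type islets, and 0.0583 for Kcne3 between genotypes under DMXAA. The Kcne3 call in wild-type islets was also lost with limma-voom (0.101) and with a mean of at least 1 CPM (0.0559), and that of its difference of effects with limma-voom (0.0647). The Jag1 call in knockout-labelled islets was lost with a mean of at least 1 CPM (0.078), limma-voom (0.0838) and the older edgeR fit (0.0583). Low counts keep Cftr out of the main tests, and no difference in it was called without the filter.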
